A study of Homo sapiens with 24 samples.

Results

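The human APOBEC3 family holds 7 cytidine deaminase genes, APOBEC3A, APOBEC3B, APOBEC3C, APOBEC3D, APOBEC3F, APOBEC3G and APOBEC3H, which lie next to each other on chromosome 22. They were taken by gene symbol from a table of read counts for 58381 genes, and all 7 were found. RNA sequencing of polyadenylated RNA was done in 4 established human lines of bladder carcinoma, namely CLS-439, T24, 5637 and TCC-SUP. Each was either left untreated or exposed to 75 µM mitomycin C for 1 h, with RNA taken 15 h after treatment. Mitomycin C cross-links DNA strands and is given into the bladder as chemotherapy. Each of the 8 groups held 3 libraries, numbered 1, 3 and 4 and described by the submitters as biological replicates, so that 24 libraries were compared. The comparisons ask how much RNA of each family member a line holds without treatment, how that level moves after mitomycin C, and whether the movement differs between lines.

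APOBEC3 enzymes convert cytosine to uracil in single-stranded DNA. They restrict retroviruses and mobile elements, and uracil that they leave in chromosomal DNA is cut out by the uracil DNA glycosylase UNG and handled by base excision repair. APOBEC3A and APOBEC3B act in the nucleus and are linked to the APOBEC-type mutations that are common in bladder tumours, whereas APOBEC3F and APOBEC3G are mainly cytoplasmic and are known as factors that block HIV when its Vif protein is missing. Several members respond to interferon, APOBEC3B is also known as a target of the DREAM and E2F repressor complexes and of non-canonical NF-κB signalling, and p53 has been reported to act on several members.

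The members carry either 1 or 2 zinc-binding deaminase domains, and the coding sequence shows which. The search was for TGG, any 3 bases, CC, any base and TGC in the reading frame, which encode a tryptophan, any residue, a proline and the first zinc-binding cysteine of the active site. In the GENCODE coding sequences it occurred 1 time each in APOBEC3A (597 coding bases), APOBEC3C (570) and APOBEC3H (546). It occurred 2 times each in APOBEC3B (1146 coding bases), APOBEC3D (1158), APOBEC3F (1119) and APOBEC3G (1152). The windows of 60 coding bases around each match are shown because they also show how alike the members are. The motif is in capitals, and the sequences are coding strand, 5′ to 3′.
APOBEC3A: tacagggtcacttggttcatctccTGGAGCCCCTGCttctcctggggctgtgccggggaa
APOBEC3B, first domain: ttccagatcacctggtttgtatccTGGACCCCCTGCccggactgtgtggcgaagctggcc
APOBEC3B, second domain: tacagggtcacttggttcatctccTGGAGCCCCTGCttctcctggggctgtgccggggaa
APOBEC3C: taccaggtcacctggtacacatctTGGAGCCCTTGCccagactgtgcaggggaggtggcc
APOBEC3D, first domain: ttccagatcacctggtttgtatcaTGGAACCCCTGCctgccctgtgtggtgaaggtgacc
APOBEC3D, second domain: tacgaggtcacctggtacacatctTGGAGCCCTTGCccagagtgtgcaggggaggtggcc
APOBEC3F, first domain: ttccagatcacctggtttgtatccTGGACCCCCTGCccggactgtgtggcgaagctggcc
APOBEC3F, second domain: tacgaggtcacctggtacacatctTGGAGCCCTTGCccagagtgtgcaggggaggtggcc
APOBEC3G, first domain: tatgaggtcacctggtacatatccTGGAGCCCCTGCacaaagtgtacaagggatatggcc
APOBEC3G, second domain: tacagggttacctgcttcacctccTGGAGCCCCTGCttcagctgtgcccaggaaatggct
APOBEC3H: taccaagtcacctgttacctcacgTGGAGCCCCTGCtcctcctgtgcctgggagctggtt

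The window of APOBEC3A is identical to that of the second domain of APOBEC3B, the first domains of APOBEC3B and APOBEC3F share their window, and so do the second domains of APOBEC3D and APOBEC3F. The longest identical coding run between APOBEC3A and APOBEC3B spans 196 bases. It is printed here because a read inside it fits both genes: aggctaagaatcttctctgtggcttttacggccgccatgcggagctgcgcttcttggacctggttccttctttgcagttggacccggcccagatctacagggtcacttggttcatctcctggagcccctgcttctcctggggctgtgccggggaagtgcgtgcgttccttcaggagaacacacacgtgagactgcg. Longer still was the run of 222 bases between APOBEC3D and APOBEC3F, followed after the APOBEC3A pair by 172 bases between APOBEC3B and APOBEC3D and 142 bases between APOBEC3F and APOBEC3G.

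Counted in windows of 50 bases along all annotated transcripts, 28.7% of the windows of APOBEC3A, 40.0% of APOBEC3B and 21.0% of APOBEC3F also occurred in another gene. The share was 7.73% for APOBEC3G, 1.28% for APOBEC3C and 0% for APOBEC3H. APOBEC3D stood highest at 86.2%, since 2104 of its 2528 exonic bases also belong to AL022318.4, a read-through gene model that was listed at 0 reads in all 24 libraries. The sources used here do not say how reads that fit several genes were counted, and the levels of APOBEC3A, APOBEC3B, APOBEC3D and APOBEC3F are uncertain to that extent.

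In GRCh38 the 7 genes lie on the plus strand of chromosome 22. APOBEC3A spans 38952741 to 38992778 in GENCODE, where a read-through transcript takes it into APOBEC3B (38982347 to 38992804). The 2 genes share 348 exonic bases on the same strand. APOBEC3C (39014083 to 39020352), APOBEC3D (39021113 to 39033276), APOBEC3F (39040604 to 39053910), APOBEC3G (39077005 to 39087743) and APOBEC3H (39097224 to 39104067) follow in that order. The antisense gene APOBEC3B-AS1 overlaps 244 exonic bases of APOBEC3B on the opposite strand, and it held 0 to 3 reads in any library.

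Library totals ran from 13791428 to 28821665 counted reads. The CLS-439 libraries stood apart from the other lines, with 0.0238 to 0.0283% of reads from mitochondrial genes against 3.21 to 7.40% elsewhere, and 2.75 to 3.05% from processed pseudogenes against at most 0.228%. The 7 genes together held 306 to 487 reads per CLS-439 library and 3097 to 5452 per library of the other lines. CDKN1A, which encodes the cell cycle inhibitor p21, was read as a check of the treatment and rose in each line (means of 3 libraries in CPM, a gene's reads scaled to the size of the library). CDKN1A went from 30.3 to 182 CPM in T24, from 181 to 436 CPM in 5637, from 79.0 to 182 CPM in TCC-SUP and from 78.4 to 470.0 CPM in CLS-439. Of the epithelial markers 5 to 7 of 7 reached a mean of 1 CPM in each line. Of 7 urothelial markers 3 or 4 did, with UPK3A at 0 in T24 and 5637 and UPK2 at 0 in CLS-439. Of 4 mesenchymal markers 3 did in 5637 and 4 in each other line. They summed to 4137 to 8697 CPM per library in T24, 1822 to 3573 in 5637, 2245 to 3713 in TCC-SUP and 3055 to 3683 in CLS-439. Epithelial markers summed to 3175 to 6896 CPM in T24, 4009 to 7370 in 5637, 1088 to 2672 in TCC-SUP and 1738 to 2861 in CLS-439. Lymphocyte markers summed to 0.113 to 0.503 CPM per library in T24, 0.145 to 0.427 in 5637, 1.99 to 2.68 in CLS-439 and 11.4 to 32.8 in TCC-SUP, where PTPRC and CD4 were above 1 CPM and NKG7 and MS4A1 were at 0. Myeloid markers summed to at most 1.96 CPM in T24 and in 5637, 6.25 to 12.2 in TCC-SUP (mostly CD14) and 8.76 to 11.8 in CLS-439 (mostly LYZ). After treatment PTPRC fell in TCC-SUP (log2 fold change -1.40, SE 0.27, adjusted p = 0.00110), from 30.0 to 11.4 CPM. The part of these markers in the APOBEC3 levels was not tested. In such bulk RNA, fewer cells that express a gene and less of its RNA per cell cannot be told apart.

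All levels below are CPM after scaling by trimmed mean of M-values (TMM), given as mean ± SD over 3 libraries, or library by library in the order 1, 3, 4. Log2 fold changes and Benjamini-Hochberg adjusted p-values come from edgeR's quasi-likelihood test fitted to all 24 libraries and 20820 genes. Standard errors (SE) were worked out from that test, as the absolute log2 fold change divided by the square root of the F statistic. A change is called where the adjusted p was under 0.05.

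**Figure D1:**
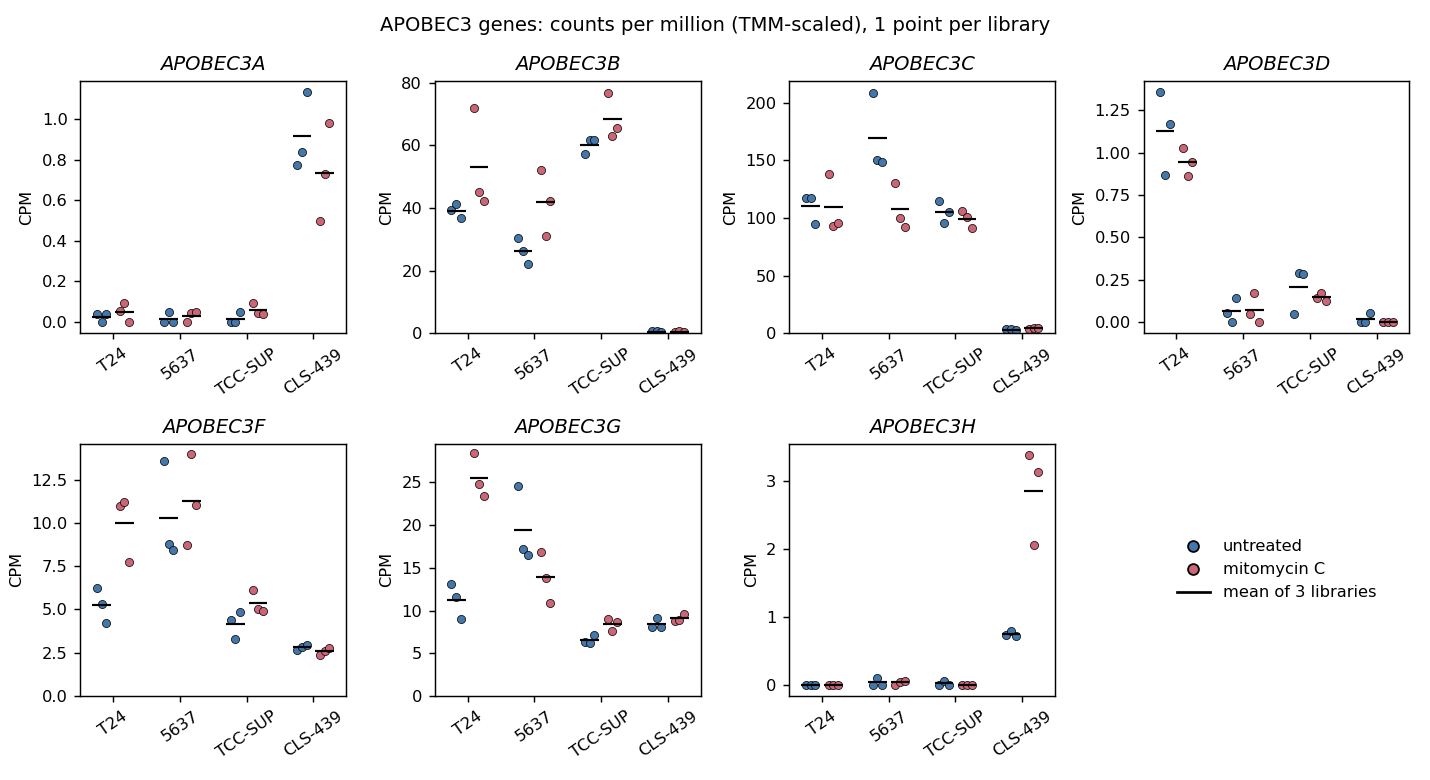
Level in CPM (y axes, each panel on its own linear scale) of the 7 APOBEC3 genes in every library, by line; blue points are untreated libraries, red points mitomycin C, and black lines mark means of 3 libraries. APOBEC3B and APOBEC3C are near the bottom in CLS-439, APOBEC3A and APOBEC3H are above 0.2 CPM in CLS-439 and under 0.1 CPM in the other lines, and treated T24 libraries lie above untreated ones for APOBEC3F and APOBEC3G.

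APOBEC3B, the nuclear enzyme with 2 domains, was most abundant in TCC-SUP and almost absent from CLS-439. Untreated libraries held 57.3, 61.6 and 61.7 CPM in TCC-SUP, 39.4, 41.3 and 36.8 in T24, and 30.4, 26.1 and 22.02 in 5637. CLS-439 held 0.690, 0.630 and 0.258 CPM, or 5 to 16 reads per library. No library of a line overlapped with one of the next line in this order, and each step was called in edgeR's test. TCC-SUP exceeded T24 by 0.62 on the log2 scale (SE 0.21, adjusted p = 0.0138), T24 exceeded 5637 by 0.58 (SE 0.21, adjusted p = 0.0240), and 5637 exceeded CLS-439 by 5.60 (SE 0.30, adjusted p = 1.43e-14). For comparison, the share of all tested genes called between untreated lines was 46.6% for T24 against 5637, 51.3% for T24 against TCC-SUP, 56.6% for 5637 against TCC-SUP, 72.3% for T24 against CLS-439, 73.7% for 5637 against CLS-439 and 77% for TCC-SUP against CLS-439. Between treated lines these shares were 49.2%, 49%, 54.7%, 75.1%, 75.6% and 78.6%. The step from T24 to 5637 rested on single libraries: the adjusted p was 0.0701 without replicate 3 of untreated T24, 0.0605 without replicate 3 of untreated 5637 and 0.116 without its replicate 4. Over all 31 alternatives it reached 0.165 at most. The step from TCC-SUP to T24 lost its call in 1 of 31 alternatives, with an adjusted p of 0.104.

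After mitomycin C, APOBEC3B rose in 5637, where treated libraries held 52.0, 31.2 and 42.4 CPM, all above the 22.02 to 30.4 CPM of the untreated ones. The log2 fold change was 0.68 (SE 0.21), a 1.598-fold rise, with an adjusted p of 0.0159 in edgeR's test. Without replicate 1 of the treated 5637 libraries it was 0.46, with an adjusted p of 0.107, and the call was also lost without replicate 3 (adjusted p = 0.0542) or 4 (adjusted p = 0.0950) of the untreated ones. With replicate 4 left out of every group the change was 0.55 (adjusted p = 0.220). In T24 the treated libraries held 71.8, 45.0 and 42.3 CPM, which again did not overlap with the untreated libraries. The T24 difference of 0.44 (SE 0.21) was not called, with an adjusted p of 0.120, and it was 0.17 without replicate 1 of the treated libraries, the highest of the 3. TCC-SUP went from 60.2 ± 2.49 to 68.4 ± 7.25 CPM, a log2 difference of 0.19 (95% interval -0.25 to 0.62, adjusted p = 0.574) that was not called although the libraries did not overlap. CLS-439 held 0.526 ± 0.234 CPM before and 0.560 ± 0.196 after treatment. With treatment the means were 68.4 CPM in TCC-SUP, 53.03 in T24 and 41.8 in 5637, and neither step between neighbours among these 3 lines was called (adjusted p = 0.144 and 0.181). The outer lines still differed, 5637 lying below TCC-SUP by -0.71 on the log2 scale (SE 0.21, adjusted p = 0.00501) with no overlap of libraries.

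APOBEC3C, a broadly expressed enzyme with 1 domain, held the most reads of the family in the 3 lines other than CLS-439. Untreated 5637 libraries held 209, 150.2 and 149 CPM, T24 held 117, 118 and 95.1, TCC-SUP held 115, 96.1 and 105, and CLS-439 held 3.37, 3.31 and 2.63. 5637 lay above T24 by 0.62 on the log2 scale (SE 0.16, adjusted p = 0.00302). T24 and TCC-SUP did not differ beyond their spread (log2 difference 0.06, SE 0.16, adjusted p = 0.805), and TCC-SUP lay above CLS-439 by 5.08 (SE 0.21, adjusted p = 8.94e-17).

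After mitomycin C, APOBEC3C fell in 5637, to 130.1, 100.2 and 92.1 CPM, each below the lowest untreated library. The log2 fold change was -0.65 (SE 0.16, adjusted p = 0.00393), a 1.57-fold drop. The call was lost with replicate 3 (adjusted p = 0.0513) or replicate 4 (adjusted p = 0.0730) left out of every group. T24 held 110.1 ± 13.0 CPM untreated and 109 ± 25.4 treated (log2 difference -0.01, 95% interval -0.36 to 0.34), and TCC-SUP held 105 ± 9.41 and 99.4 ± 7.64 CPM (-0.09, 95% interval -0.43 to 0.26). In CLS-439 the treated libraries held 4.06, 4.34 and 4.86 CPM, all above the untreated ones, but the difference of 0.51 (SE 0.20) was not called (adjusted p = 0.457). After treatment 5637, at 108 CPM, no longer stood above T24 at 109 CPM (log2 difference 0.02, SE 0.16, adjusted p = 0.969).

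APOBEC3G, the cytoplasmic enzyme with 2 domains that was first known for blocking HIV, rose in T24 and fell in 5637. In T24 the libraries went from 13.1, 11.6 and 9.06 CPM untreated to 28.4, 24.8 and 23.4 CPM treated. The groups did not overlap, and the log2 fold change was 1.19 (SE 0.18, adjusted p = 3.41e-05), a 2.27-fold rise. It remained called in each of the 34 other fits of that comparison, in which the adjusted p ran from 1.69e-09 to 0.0154. In 5637 the libraries went from 24.5, 17.2 and 16.5 to 16.9, 13.9 and 10.9 CPM, and the highest treated library lay above the lowest untreated one.

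The 5637 change of -0.48 (SE 0.18) was called with an adjusted p of 0.0483. That call was narrow: over the 34 other fits the adjusted p ran from 0.00821 to 0.306, and it was at or above 0.05 in 21 of them. Without replicate 1 of the untreated 5637 libraries the change was -0.29 (adjusted p = 0.306), and without replicate 4 of the treated ones it was -0.34 (adjusted p = 0.241). With the replicate number as a block, which pairs the 5637 libraries, it was -0.48 with an adjusted p of 0.0183.

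TCC-SUP went from 6.34, 6.16 and 7.08 to 8.97, 7.64 and 8.69 CPM, without overlap, and its difference of 0.37 (SE 0.19) was not called (adjusted p = 0.178). CLS-439 held 8.41 ± 0.582 and 9.08 ± 0.444 CPM, and its difference of 0.11 had a 95% interval from -0.29 to 0.51. APOBEC3G was thus the only family member whose level in untreated CLS-439 lay between those of other lines. The untreated order was 5637 at 19.4 CPM, T24 at 11.2, CLS-439 at 8.41 and TCC-SUP at 6.53. The step from 5637 to T24 was called (log2 difference 0.79, SE 0.18, adjusted p = 0.000878). The step from T24 to CLS-439 reached an adjusted p of 0.0470 and lost its call with another normalization, with DESeq2 and without any of several single libraries, and the step from CLS-439 to TCC-SUP was not called (adjusted p = 0.0836). After treatment T24 stood first at 25.6 CPM, above 5637 at 13.9 (log2 difference 0.88, SE 0.18, adjusted p = 0.000259), so the order of these 2 lines turned round.

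APOBEC3F, which like APOBEC3G has 2 domains and acts on retroviruses, rose in T24. The libraries went from 6.24, 5.30 and 4.19 to 10.99, 11.2 and 7.73 CPM, with every treated library above every untreated one. The log2 fold change was 0.93 (SE 0.23, adjusted p = 0.00305), a 1.90-fold rise. With replicate 3 or replicate 4 left out of every group the adjusted p was 0.0635 and 0.0797. In 5637 untreated libraries held 13.6, 8.79 and 8.46 CPM and treated ones 8.70, 13.99 and 11.02, which overlapped widely (difference 0.13, 95% interval -0.33 to 0.60). TCC-SUP went from 4.17 ± 0.796 to 5.35 ± 0.673 CPM without overlap (difference 0.35, SE 0.23, adjusted p = 0.307), and CLS-439 from 2.81 ± 0.132 to 2.57 ± 0.195 CPM (difference -0.12, SE 0.25).

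Untreated 5637 stood above T24 for APOBEC3F by 0.97 on the log2 scale (SE 0.23, adjusted p = 0.000888), at 10.3 against 5.24 CPM. T24 and TCC-SUP, at 5.24 and 4.17 CPM, did not differ beyond their spread (adjusted p = 0.255). After treatment 5637 and T24, at 11.2 and 9.97 CPM, did not differ beyond theirs (adjusted p = 0.556), and T24 stood above TCC-SUP (log2 difference 0.90, SE 0.23, adjusted p = 0.00168).

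APOBEC3H, an enzyme with 1 domain and the last gene of the cluster, was read in CLS-439 and next to nowhere else. The untreated CLS-439 libraries held 17, 15 and 14 reads and the treated ones 54, 42 and 70, or 0.733, 0.787 and 0.721 against 3.37, 2.05 and 3.12 CPM. The log2 fold change was 1.92 (SE 0.38), a 3.78-fold rise, with an unadjusted p of 8.91e-05 and an adjusted p of 0.0213 in edgeR's test. Every treated library held more than 2 times the CPM of any untreated one. The adjusted p was at or above 0.05 when any of 5 of the 6 CLS-439 libraries was left out, from 0.0725 without replicate 1 of the treated libraries to 0.146 without replicate 4 of the treated ones. It was 0.159 with replicate 3 and 1.0 with replicate 4 left out of every group, while the log2 fold change stayed between 1.77 and 2.14 over all fits that left out libraries. In the other lines a library held 0 to 2 APOBEC3H reads, and T24 held 0 in all 6. With 3 reads per group as the limit that 0 reads allow in T24, the level measured in CLS-439 was 18.5 times that limit without treatment. With treatment it was 56.8 times the limit. The limit covers counting error in T24 only, and the counting error of the CLS-439 level is left out.

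The promoter table from RefSeq (GRCh38.p14) held 1 of the 7 genes, APOBEC3H, whose upstream sequence is shown because this gene changed in CLS-439. These 230 bases at chr22:39096994-39097223, plus strand, end before the annotated start of the gene and have a GC content of 55.65%: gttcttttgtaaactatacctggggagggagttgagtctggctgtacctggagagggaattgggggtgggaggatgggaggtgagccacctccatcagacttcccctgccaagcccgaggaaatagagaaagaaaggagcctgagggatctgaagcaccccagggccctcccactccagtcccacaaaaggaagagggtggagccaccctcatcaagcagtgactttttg. In the 250 bases before the RefSeq start, searched on both strands, none of 6 motifs matched. They were the interferon response element (GAAA, any pair of bases, GAAA, present in 3.02% of 35116 promoters of the same length), the p53 decamer consensus (5.57%), the κB consensus (9.96%), the CHR element TTTGAA (13.3%), the E2F site TTTCCCGC (1.39%) and TATAAA (10.7%). That says only that these letters are not in this window.

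APOBEC3A, an enzyme with 1 domain that is best known from myeloid cells and is induced by interferon, also came mainly from CLS-439. The CLS-439 libraries held 18, 16 and 22 reads untreated and 8, 15 and 22 treated, or 0.777, 0.840 and 1.13 against 0.500, 0.731 and 0.981 CPM, with no difference beyond the spread (log2 difference -0.28, 95% interval -1.13 to 0.56). The other 18 libraries held 0 to 2 reads each. APOBEC3D, a little-studied enzyme with 2 domains, was read mainly in T24, at 35, 19 and 31 reads untreated and 19 in each treated library, or 1.13 ± 0.246 and 0.947 ± 0.0822 CPM (log2 difference -0.26, 95% interval -1.15 to 0.62). Elsewhere a library held 0 to 6 reads. All 7 members passed the filter on low counts, but APOBEC3A and APOBEC3H passed it through CLS-439 alone and APOBEC3D through T24 alone, so their differences between lines are given as levels only. At 2 reads per library or fewer, a change of APOBEC3A or APOBEC3H in T24, 5637 and TCC-SUP was not detectable at this depth.

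**Figure D2:**
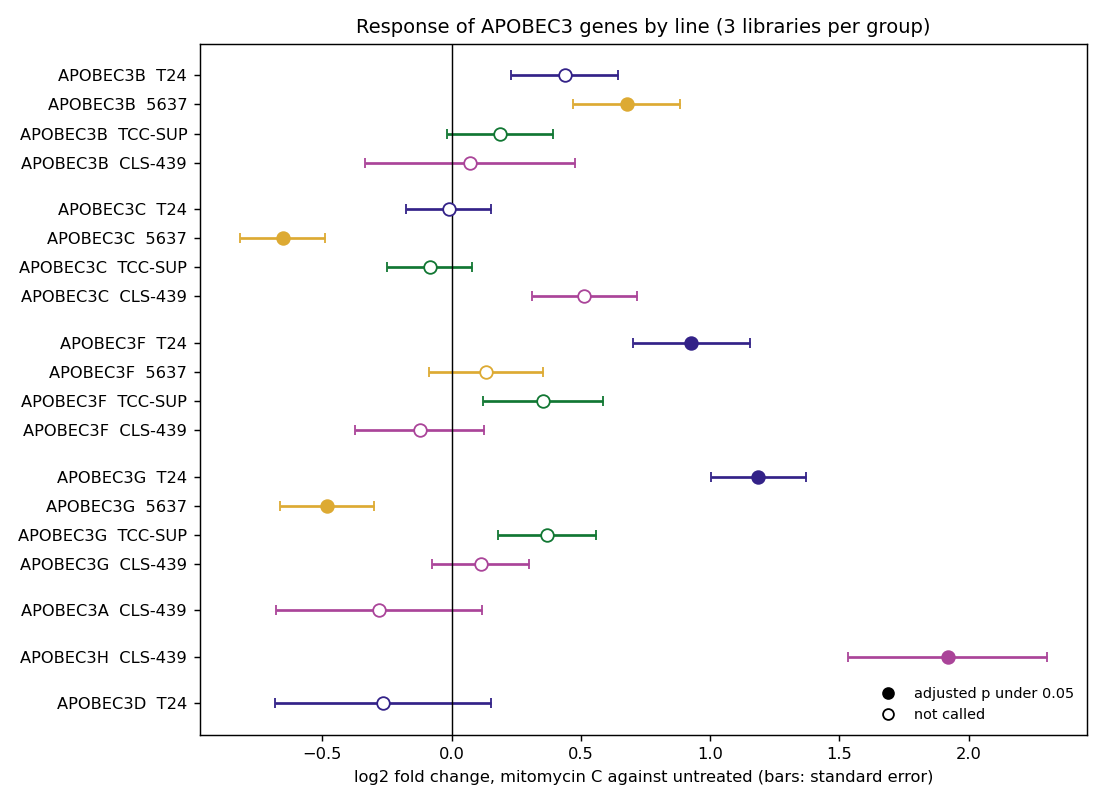
Log2 fold change after mitomycin C (x axis) with its standard error for 4 family members in each line and for the 3 sparse members in the line that holds their reads, from 3 libraries per group; filled points passed an adjusted p of 0.05 in edgeR's test. APOBEC3G and APOBEC3F in T24, APOBEC3B in 5637 and APOBEC3H in CLS-439 are filled on the right, and APOBEC3C and APOBEC3G in 5637 are filled on the left.

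Counted over the family, 2 of 7 members were called in T24 (both higher), 3 of 7 in 5637 (1 higher, 2 lower), 0 of 7 in TCC-SUP and 1 of 7 in CLS-439 (higher). Over all tested genes, T24 had 28.6% called (15.2% higher and 13.4% lower), 5637 had 29.4% (15.9% and 13.6%), TCC-SUP had 20.7% (9.57% and 11.1%) and CLS-439 had 0.62% (0.298% and 0.322%). With all 7 counted, the 2 in T24 were thus near the background share, and the 3 in 5637 were 1 gene more than it gives. Among the 7, however, APOBEC3A and APOBEC3H held 0 to 2 reads per library outside CLS-439, and APOBEC3D 0 to 6 outside T24. Members with so few reads could hardly be called there, so these counts do not separate too few reads from no change. In TCC-SUP edgeR's test also gave 0 members at an unadjusted p under 0.05, and DESeq2 called 0. Treated and untreated libraries did not overlap for 3 members in each of T24 and TCC-SUP, against 34.6% and 37.7% of all tested genes, and for 2 members in each of 5637 and CLS-439, against 40.5% and 21.9%.

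Because a call in T24 and none in another line does not show that the lines differ, the difference between responses was tested itself. An F test over the 4 responses was called for APOBEC3G (adjusted p = 0.000819) and APOBEC3C (adjusted p = 0.0180), as it was for 16% of all tested genes. It was not called for APOBEC3F (adjusted p = 0.103) or APOBEC3B (adjusted p = 0.538). Between pairs of lines, the APOBEC3G response was higher in T24 than in 5637 by 1.67 on the log2 scale (SE 0.26, adjusted p = 0.000465), where 3.47% of all tested genes were called. It was higher in T24 than in CLS-439 by 1.07 (SE 0.26, adjusted p = 0.00985), where 10.1% were called. With replicate 4 left out of every group the adjusted p was 0.119 for the first and 0.241 for the second.

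The APOBEC3G response in TCC-SUP lay between those of T24 and 5637. The difference of T24 and TCC-SUP was 0.82 (SE 0.26, adjusted p = 0.0839) and that of 5637 and TCC-SUP was -0.85 (SE 0.26, adjusted p = 0.0857), where 3.79% and 2.7% of all tested genes were called. The background was 2.65% for TCC-SUP against CLS-439, where no member was called. Both were called by DESeq2 (adjusted p = 0.0255 and 0.0359) and with the replicate number as a block (adjusted p = 0.0342 and 0.0335). Over all 32 alternatives the adjusted p ran from 0.0255 to 0.873 for the first and from 0.0240 to 0.707 for the second. For APOBEC3C the response was lower in 5637 than in CLS-439 by 1.17 on the log2 scale (SE 0.26, adjusted p = 0.00561), where 9.02% of all tested genes were called, and over its alternatives the adjusted p ran from 0.000477 to 0.234. The T24 response minus that of 5637 was 0.64 and the 5637 response minus that of TCC-SUP was -0.57, and neither was called (adjusted p = 0.135 and 0.224). For APOBEC3F the response was higher in T24 than in CLS-439 by 1.05 (SE 0.34, adjusted p = 0.0467), a call that was lost without any of 14 single libraries (adjusted p over all alternatives 0.0217 to 0.357). For APOBEC3B no pair was called, and the T24 and 5637 responses differed by -0.24 (95% interval -0.86 to 0.38).

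Compared per kilobase of gene length, the scale on which different genes can be set side by side, the family was made up of APOBEC3C and APOBEC3B in the 3 lines with many reads. In untreated T24 APOBEC3C made up 61.1% ± 1.25 and APOBEC3B 32.4% ± 1.71 of the family's reads per kilobase, and APOBEC3G and APOBEC3F followed at 3.22% ± 0.322 and 2.52% ± 0.299. After treatment APOBEC3C made up 51.9% ± 1.602 there, and the APOBEC3G share of 6.41% ± 0.849 was close to 2 times its untreated value. In 5637 the APOBEC3B share went from 17.2% ± 1.43 to 33.1% ± 4.68, and that of APOBEC3C from 74.4% ± 1.25 to 57.5% ± 3.17. TCC-SUP had nearly equal parts, 44.3% ± 3.04 APOBEC3B and 52.1% ± 3.05 APOBEC3C untreated, and 48.3% ± 1.85 and 47.3% ± 1.998 treated.

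CLS-439 had another make-up. APOBEC3G led the untreated libraries with 32.3% ± 1.05, followed by APOBEC3C with 22.9% ± 2.19, APOBEC3F with 18.2% ± 1.56, APOBEC3H with 12.5% ± 0.245, APOBEC3A with 8.19% ± 2.10 and APOBEC3B with 5.73% ± 2.42. After treatment APOBEC3H made up 32.7% ± 6.50 and led the family. These shares are a description, with no test, and they inherit the uncertainty of reads shared between members. Summed over the family, T24 held 167 ± 17.8 CPM untreated and 199 ± 45.1 treated, 5637 held 225 ± 45.2 and 175 ± 28.8, TCC-SUP held 177 ± 8.11 and 182 ± 14.6, and CLS-439 held 16.5 ± 0.870 and 20.2 ± 1.30. Treated and untreated sums overlapped in T24, 5637 and TCC-SUP, whereas in CLS-439 the treated libraries (19.4 to 21.7 CPM) lay above the untreated ones (15.8 to 17.5 CPM).

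**Figure D3:**
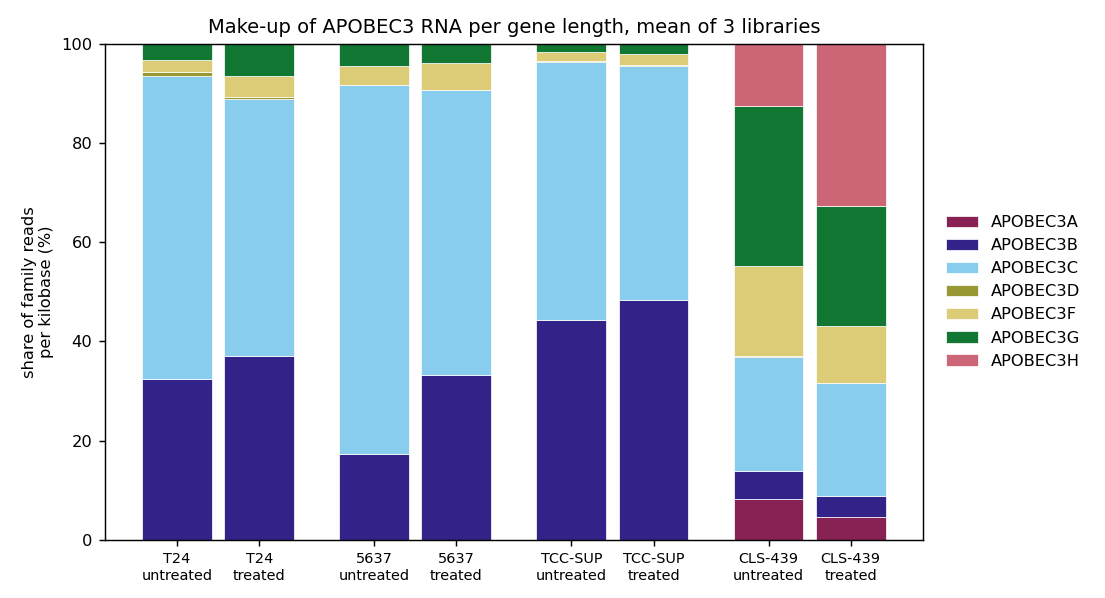
Share of each gene in the family's reads per kilobase of gene length (y axis, per cent), as the mean of 3 libraries, for untreated and treated groups of each line. APOBEC3B and APOBEC3C fill most of the bar in T24, 5637 and TCC-SUP, whereas in CLS-439 APOBEC3G leads at 32.3% untreated and APOBEC3H at 32.7% treated.

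The genes whose levels ran most like each member were ranked by Pearson's r of log2 CPM. Candidates were tested protein-coding genes outside the family whose symbols hold only capital letters and digits. The 24 libraries share 4 lines, so these values describe the libraries and carry no test. Over all 24, APOL6, DNPH1 and GPR173 were most like APOBEC3B (r = 0.991 and 0.990 for the first and the second), ARHGDIB, HCAR1 and NT5DC2 most like APOBEC3C (0.993 for the first) and MAB21L4, EDA2R and THPO most like APOBEC3H (0.976 for the first). For APOBEC3A they were PHOSPHO1, PDCD1 and KIF25 (0.961 for the first), and for APOBEC3D they were DHRS4, GOLGA8H and EMD (0.936 for the first). Each of these 5 members has 1 line far from the rest. For APOBEC3F they were NFKBIA, HCAR3 and NAXD (r = 0.956, 0.948 and 0.944), and NFKBIA encodes the inhibitor that holds NF-κB in the cytoplasm. For APOBEC3G they were STARD10, ERAL1 and RRP12 (0.910, 0.901 and 0.879).

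Over the 18 libraries without CLS-439, NFKBIA was again among the 3 genes most like APOBEC3F (r = 0.922, after TRAPPC6A at 0.926 and before RNF19B at 0.910). For APOBEC3G they were LIF, AATK and TACO1 (0.931, 0.924 and 0.915), LIF being a cytokine of the IL6 family. For APOBEC3B they were P2RX4, CRACR2B and BTN2A2 (0.976, 0.952 and 0.926), and for APOBEC3C they were PRR5, EIF3K and PTGES2 (0.908, 0.901 and 0.894). DHRS4 stayed first for APOBEC3D (0.949), before TRPV2 and ABCB1. For APOBEC3A and APOBEC3H, with at most 2 reads per library there, the highest r of 0.628 (FILIP1) and 0.845 (MAB21L4) rests on sparse counts. Among the members themselves, APOBEC3F and APOBEC3G ran alike over these 18 libraries (r = 0.812), whereas APOBEC3B and APOBEC3C had an r of -0.444. Over all 24 libraries, CLS-439 included, the value for APOBEC3B and APOBEC3C was 0.967.

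The family sits among genes of other kinds, and 14 neighbours on both sides of the cluster were tested. In T24, 5 of them rose and 3 fell, led by DNAL4, a dynein light chain (log2 fold change 1.11, SE 0.18, adjusted p = 5.34e-05), and NPTXR, a neuronal pentraxin receptor (1.11, SE 0.30, adjusted p = 0.00764). In 5637, 6 rose and 4 fell, led by RPL3, a ribosomal protein (-1.22, SE 0.15, adjusted p = 1.52e-06), and PDGFB, a platelet-derived growth factor chain (1.07, SE 0.30, adjusted p = 0.00930). In TCC-SUP, 1 rose (JOSD1) and 2 fell, RPL3 (-1.05) and the nuclear envelope gene SUN2 (-0.79). In CLS-439, edgeR's test called 0 of 14, with 2 at an unadjusted p under 0.05 and 1 called by DESeq2. For scale, the called share of all tested genes was 0.62% in this line, 20.7% in TCC-SUP, 29.4% in 5637 and 28.6% in T24.

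CBX6, the last neighbour before the cluster, fell in T24 (-0.57) and 5637 (-0.64), and CBX7, the first after it, was called in no line (log2 fold changes from -0.29 to 0.16). The median over the 14 neighbours was -0.11 in CLS-439, -0.03 in T24, 0.10 in TCC-SUP and 0.25 in 5637, against 0 over all tested genes in each line.

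**Figure D4:**
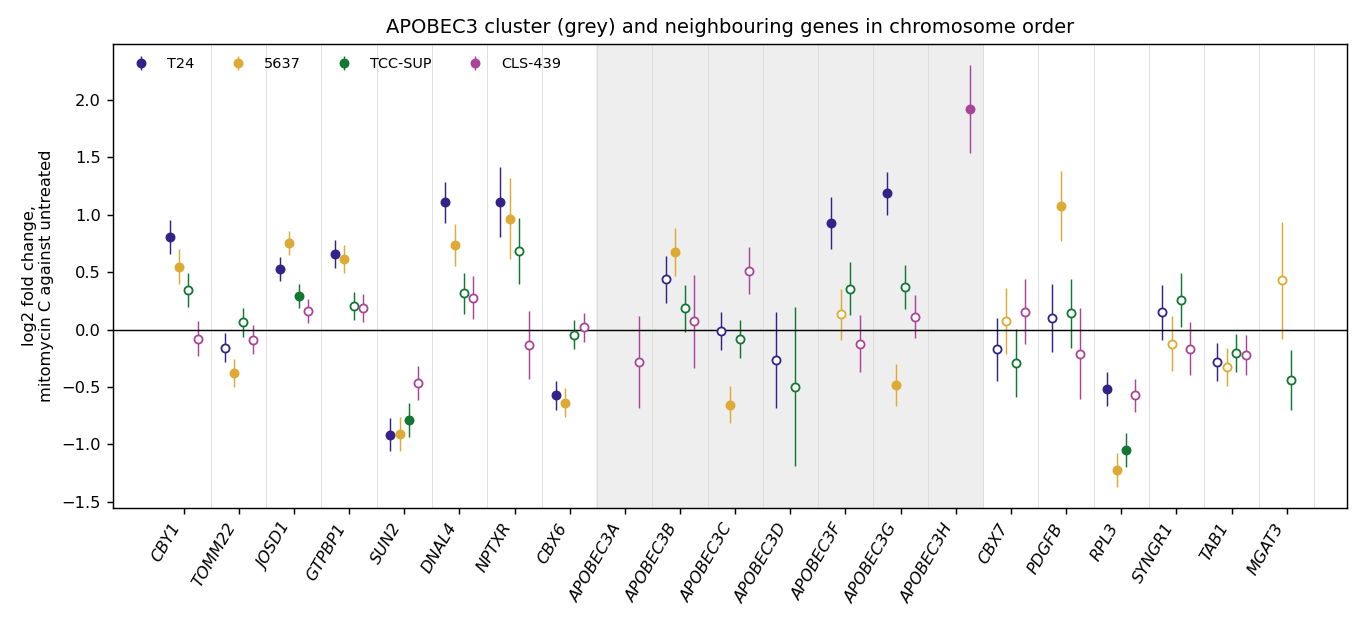
Log2 fold change after mitomycin C (y axis, bars are standard errors) of the APOBEC3 cluster (grey) and 14 neighbouring genes in chromosome order, by line; filled points passed an adjusted p of 0.05 and values with a standard error of 0.7 or more are not drawn. SUN2 and RPL3 lie below 0 in each line, and within the cluster the filled points lie on both sides of 0.

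Genes that act before or after the APOBEC3 enzymes were read from lists, and each is given with its count and median. As background, edgeR's test called 0.62% of all tested genes in CLS-439 (0.298% higher, 0.322% lower). It called 20.7% in TCC-SUP (9.57% higher, 11.1% lower). The share was 29.4% in 5637 (15.9% higher, 13.6% lower) and 28.6% in T24 (15.2% higher, 13.4% lower). No list was tested against these shares. Of 18 uracil and abasic site repair genes, 5 rose and 2 fell in T24, 8 rose and 3 fell in 5637 and 5 rose in TCC-SUP. APEX2, an endonuclease that cuts at abasic sites, rose in these 3 lines (log2 fold change 1.04 in T24, 0.83 in 5637 and 0.80 in TCC-SUP, SE 0.12 in each). MBD4, a glycosylase for uracil and thymine in mismatches, rose in T24 (0.77, SE 0.27) and 5637 (0.86, SE 0.27). UNG, the main uracil glycosylase, rose in 5637 (0.61, SE 0.12) and TCC-SUP (0.58, SE 0.12). DUT, which keeps uracil out of the nucleotide pool, rose in the same lines (0.41 and 0.37, SE 0.12 each).

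LIG3, a ligase of base excision repair, fell in T24 (-0.66, SE 0.14) and 5637 (-0.63, SE 0.14), and APEX1, the main abasic endonuclease, fell in 5637 (-0.66, SE 0.11). The median of the list was 0.06, 0.35, 0.26 and -0.02 in T24, 5637, TCC-SUP and CLS-439. In CLS-439 edgeR's test called 0 of 18, with 2 at an unadjusted p under 0.05 and 1 called by DESeq2.

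Of 26 tested interferon-stimulated genes, 20 rose in T24, 6 rose and 1 fell in 5637, and 1 rose in TCC-SUP. In T24 the antiviral GTPase gene MX1 (log2 fold change 2.75, SE 0.39) and XAF1 (2.22, SE 0.35) led. In 5637 IFI27 rose (2.19, SE 0.62) and SAMD9L fell (-2.09, SE 0.37), and in TCC-SUP the called gene was ISG20 (0.73, SE 0.24), an exonuclease. ISG20 also rose in T24 (1.48, SE 0.24) and 5637 (1.31, SE 0.25), and SAMD9L rose in T24 (1.16, SE 0.31). The list's median was 1.24, 0.53, 0.14 and 0.03 in T24, 5637, TCC-SUP and CLS-439. In CLS-439 edgeR's test called 0 of 26, with 0 at an unadjusted p under 0.05 and 0 called by DESeq2.

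Of 16 interferon signalling genes, 11 rose in T24, 8 in 5637 and 4 in TCC-SUP, where JAK1 fell (-0.60, SE 0.13). The list's median was 0.55, 0.47, 0.33 and 0.06 in T24, 5637, TCC-SUP and CLS-439. The feedback inhibitor SOCS1 rose in T24 (2.60, SE 0.35) and 5637 (1.80, SE 0.31). The transcription factor gene IRF1 rose in T24 (1.83, SE 0.16), 5637 (0.58, SE 0.16) and TCC-SUP (0.47, SE 0.16). IRF7, another such gene, rose in T24 (1.61, SE 0.26) and 5637 (1.97, SE 0.26). In CLS-439 edgeR's test and DESeq2 called 0 of 16, with 2 at an unadjusted p under 0.05. Retroelement restriction genes outside the family, 15 of them tested, had 5 that rose in T24, 3 that rose and 2 that fell in 5637, and 2 and 1 in TCC-SUP. RNASEH2A, a subunit of the nuclease that removes RNA from hybrids with DNA, rose in T24 (0.94, SE 0.20) and 5637 (1.13, SE 0.20), and ADAR, an adenosine deaminase of RNA, in T24 (0.58, SE 0.14) and TCC-SUP (0.45, SE 0.14). SETDB1 fell in 5637 (-0.55, SE 0.13) and TCC-SUP (-0.42, SE 0.13), and MORC2 rose in TCC-SUP (0.62, SE 0.19). The median of these restriction genes, by line in the same order, was 0.32, 0.02, -0.02 and 0.06. In CLS-439 edgeR's test called 0 of 15, with 0 at an unadjusted p under 0.05 and 0 called by DESeq2.

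Of 15 NF-κB subunits and inhibitors, 12 rose in T24, 7 rose and 1 fell in 5637, and 9 rose and 1 fell in TCC-SUP. RELB, the partner of p52 in non-canonical signalling, rose by 4.39 on the log2 scale in T24 (SE 0.22), 0.87 in 5637 (SE 0.19) and 1.36 in TCC-SUP (SE 0.20). TNFAIP3, a feedback inhibitor, rose by 4.38 (SE 0.28), 1.34 (SE 0.25) and 1.45 (SE 0.25) in these lines. NFKBIZ rose by 2.22 (SE 0.19) in T24, 1.63 (SE 0.18) in 5637 and 1.10 (SE 0.18) in TCC-SUP. The median was 1.36, 0.37, 0.63 and 0.17 in T24, 5637, TCC-SUP and CLS-439. In CLS-439 edgeR's test called 0 of 15, with 0 at an unadjusted p under 0.05 and 0 called by DESeq2.

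Of 19 DREAM, MYB-MuvB and E2F genes, 6 rose and 7 fell in T24, 7 rose and 5 fell in 5637 and 4 rose and 3 fell in TCC-SUP. E2F2 and E2F8 led the rises in T24 (1.47 and 1.53), 5637 (3.04 and 1.59) and TCC-SUP (1.43 and 1.16), and in CLS-439 the 1 called gene was E2F5, which fell (-1.02, SE 0.23). The median of these genes, in the same order of lines, was -0.11, 0.06, 0.01 and 0.16. Of 10 p53 core genes, 4 rose in T24, 2 rose and 1 fell in 5637, 5 rose in TCC-SUP and 6 rose in CLS-439.

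In CLS-439 the 6 were CDKN1A (2.58, SE 0.21), the death receptor gene FAS (1.98, SE 0.23) and the p53 inhibitor gene MDM2 (1.53, SE 0.15), with the ribonucleotide reductase gene RRM2B (1.30, SE 0.23), ZMAT3 (1.07, SE 0.22) and SESN1 (0.98, SE 0.17). CDKN1A also rose in T24 (2.59, SE 0.21), 5637 (1.27, SE 0.20) and TCC-SUP (1.21, SE 0.20). TP53INP1, which is not among these 6, rose in T24 (1.74, SE 0.36), 5637 (1.55, SE 0.34) and TCC-SUP (1.24, SE 0.33). The list's median in CLS-439 was 1.14, against 0.12 in T24, 0.22 in 5637 and 0.37 in TCC-SUP. Whether the movements of the listed genes bear on the APOBEC3 levels was not tested.

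**Figure D5:**
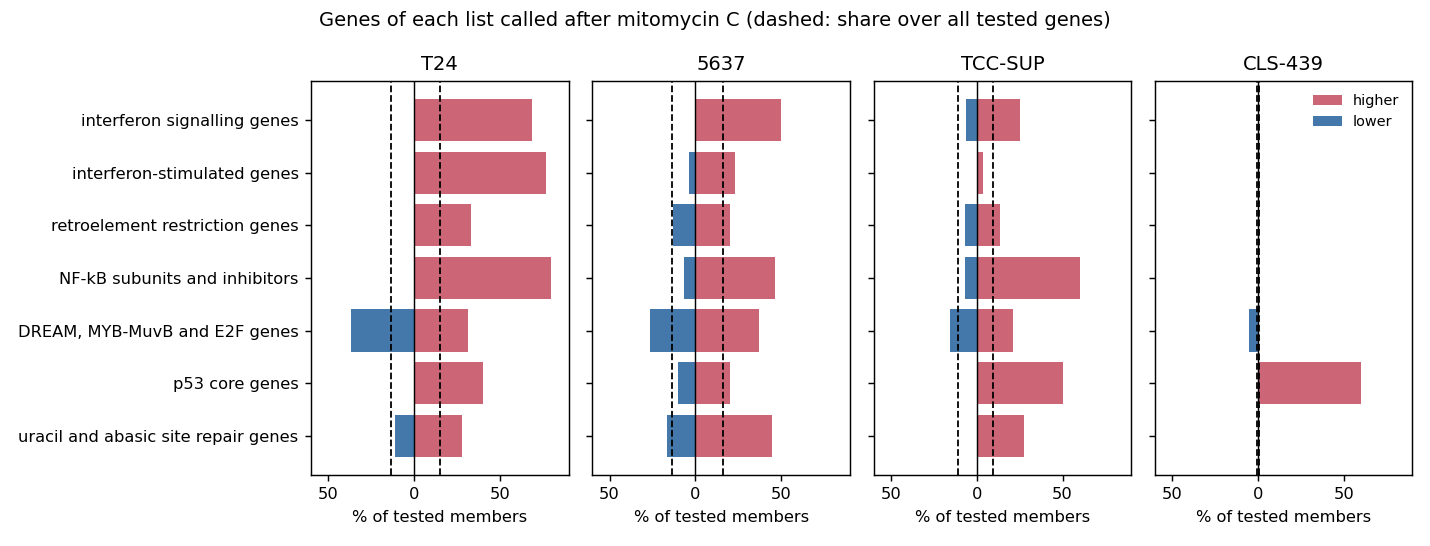
Share of the tested genes of each list called after mitomycin C (x axis, per cent of tested members; red to the right is higher, blue to the left is lower) in each line, with dashed lines at the share over all tested genes. In CLS-439 the p53 core genes (6 of 10 higher) fill the only long bar, and in T24 the interferon-stimulated genes (20 of 26 higher) and the NF-κB genes (12 of 15 higher) have the longest.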

How the data were processed

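Gene read counts were deposited by the authors as 1 table of raw counts. Reads had been aligned to GRCh38 with STAR 2.5.3a and counted with featureCounts 1.6.2, per the submitters' processing notes. The annotation release, strand setting and treatment of multi-mapping reads are not stated in those notes or labels. The libraries came from a stranded mRNA kit, per the labels' protocols, and the treatment tag MCC was read as mitomycin C, the drug that the protocol names. Gene names, positions and lengths came from GENCODE 29, which matched 58216 of 58381 identifiers (the other 165 held 0.0072% of reads). Genes were filtered with filterByExpr (20820 kept, 99.9% of reads), scaled by TMM and tested with edgeR 4.0.16 (quasi-likelihood, robust, 8 group means, 16 residual degrees of freedom) in R 4.3.3. Intervals use those degrees of freedom, fewer than the test itself used, and are therefore wide. No libraries of a group were alike within counting noise. Alternatives were other size factors, DESeq2 1.42.0, no filter, other sets of libraries, added APOBEC3A and APOBEC3B counts, and a replicate block. Log2(CPM + 1) deviations of same-numbered libraries correlated above 0.1 in each pair of 5637 (0.166 to 0.475) and CLS-439 (0.169 to 0.459). In T24 and TCC-SUP some pairs did not. The main test paired no libraries in any line, so its p-values leave this likeness out. The replicate block paired same-numbered libraries in every line. The test was also run on simulated data with independent libraries, the same dispersion for every gene, and changes set only in genes with many reads. That run does not cover members with few reads or the likeness of same-numbered libraries. The genes to be named were all 7 members, the 3 most alike genes each, the neighbours and CDKN1A. To these came up to 2 largest called changes of each list and line. Some genes under this rule are not named, and other list members were named after their values were seen. Members and lists were chosen with earlier results of these data known.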

Additional observations from a re-analysis of the deposited data

Results flagged for a closer look

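Over 7 members and every pair of lines, 4 differences of the mitomycin C response passed the test of the difference itself, all given on the log2 scale. With libraries left out, 0 to 7 differences were called. Of all tested genes, 3.47% were called for T24 against 5637, 10.1% for T24 against CLS-439 and 9.02% for 5637 against CLS-439. The APOBEC3G response was higher in T24 than in 5637 by 1.67, rising in T24 (11.2 to 25.6 CPM) and falling in 5637 (19.4 to 13.9 CPM), with every treated T24 library above every untreated one. It was higher in T24 than in CLS-439 by 1.07. The APOBEC3F response was higher in T24 than in CLS-439 by 1.05, in groups where CLS-439 held 38 to 62 APOBEC3F reads per library. That call was narrow in edgeR's test (adjusted p = 0.0467), and the F test over the 4 responses was not called for APOBEC3F (adjusted p = 0.103). The APOBEC3C response in 5637 minus that in CLS-439 was -1.17, and untreated CLS-439 held 51 to 78 APOBEC3C reads per library against 3110 to 4103 in 5637. The CLS-439 libraries differ from the others in their share of mitochondrial and pseudogene reads, and the part of that in these 3 differences was not tested. The difference of T24 and 5637 for APOBEC3G does not involve CLS-439.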

How the results depend on the processing

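The APOBEC3G rise in T24 was called under all 34 alternatives, and each of the other 5 member calls was lost in at least 2 of its alternatives. Leaving out libraries moved the number of members called to between 1 and 2 in T24, 0 and 3 in 5637, and 0 and 1 in CLS-439, and the number of called differences between lines to between 0 and 7. Genes called over the pathway lists ran from 48 to 82 in T24, 28 to 69 in 5637, 9 to 48 in TCC-SUP and 2 to 10 in CLS-439 when libraries were left out, against 80, 64, 39 and 7, and CLS-439 had 14 when fitted to its own libraries. Direction turned for small changes that were not called. The APOBEC3B change in CLS-439 was -0.14 with APOBEC3A and APOBEC3B reads added together, as the construction of that count changes it, and the APOBEC3C change in T24 was 0.0069 with other size factors and with DESeq2 alike, for which the cause was not tested. With libraries left out, these ran from -0.26 to 0.39 and from -0.21 to 0.12, and the APOBEC3F change in 5637 from -0.16 to 0.50. Between lines, the log2 difference for APOBEC3C ran from -0.063 to 0.139 (untreated T24 minus TCC-SUP), -0.16 to 0.21 (treated T24 minus 5637) and -0.092 to 0.216 (treated 5637 minus TCC-SUP), for treated APOBEC3F in T24 minus 5637 from -0.35 to 0.014, and for treated APOBEC3G in TCC-SUP minus CLS-439 from -0.15 to 0.010. With the replicate number as a block, 6 differences between lines were called in place of 4, the added ones being those of APOBEC3G in TCC-SUP from T24 (0.83) and from 5637 (-0.85), and the block changed no other call of a member. The block gave 83, 73, 46 and 8 called genes over the lists and neighbours. At 0 to 2 reads per library, depth leaves APOBEC3A and APOBEC3H unresolved outside CLS-439.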
